A study of Homo sapiens with 6 samples.

Results

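The regions described here are 100 Kb bins of compartment A whose score was lower in tamoxifen-resistant T47D cells (TamR) while the sign of the score stayed that of compartment A. They were chosen by their scores: an autosomal bin was taken when its score was above 0 in all 6 libraries and its TamR score lay more than 0.002 below the mean of the 5 parental scores. Of 30376 bins in all, 26484 autosomal bins had a score in all 6 libraries, 10336 of these were in A in all 6, and 1371 met the rule. These 1371 bins are called weakened A bins, and the 8965 remaining bins in A in all 6 are called other A bins. All scores below are given multiplied by 1000, so that the threshold of the rule is a difference of 2.

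T47D is a long-used breast cancer cell line that expresses the estrogen receptor. Parental cells were starved of hormone for 72 h and taken without E2 (T0) or 1, 4, 16 and 24 h after 100 nM E2 (T1, T4, T16, T24), and TamR is a resistant line derived from T47D, which the sample labels list as untreated and the study's methods describe as cultured with tamoxifen. Tethered conformation capture (TCC), a form of Hi-C with ligation on a solid surface, is given as 1 sample per condition in the deposited data. That sample may pool replicate cultures. Each group thus holds 1 library and no p-value is given, since nothing measures the spread between repeats of a condition. E2 was given at T1, T4, T16 and T24 but not at T0, so T0 against TamR is a comparison without added E2. With T0 alone as reference, 1132 of the weakened bins (82.6%) still met the rule. The part of E2 in the other weakened bins was not tested. The resistant state and culture with tamoxifen cannot be told apart between the parental libraries and TamR. Nor can the timed starvation of the parental cells, although the study's methods describe hormone-stripped serum for TamR too. The depth of each score is unknown because no contact counts are given with the scores.

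In Hi-C data the first eigenvector of the contact matrix separates chromatin into compartment A, which is gene-rich and mostly open, and compartment B, which is gene-poor, late replicating and often at the nuclear lamina. The sign of the score places a bin in A or B, and its size says how strongly the contacts of the bin resemble those of the one side or the other. A bin can therefore move toward B in its contacts and still be assigned to A, which a comparison of signs alone does not count.

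A protein-coding gene started in 65.1% of weakened and 61.7% of other A bins, so most bins of both kinds held a gene start. The order of these shares depended on the processing, as given below. The promoters of the first protein-coding genes in the 4 longest runs of weakened bins are shown to give the sequence context of these runs, as the 250 bases before the annotated gene start in GRCh37, read 5′ to 3′ on the strand of the gene, with each CG dinucleotide in capitals. HOMER2 (ENSG00000103942.13_12), a postsynaptic scaffold protein, has its promoter at chr15:83654906-83655155 on the minus strand. That of LEP (ENSG00000174697.5_6), the hormone leptin, is at chr7:127881081-127881330 on the plus strand. That of SPTSSA (ENSG00000165389.7_9), a small subunit of serine palmitoyltransferase, is at chr14:34931447-34931696 on the minus strand, and that of CHD5 (ENSG00000116254.18_9), a chromatin remodeller, is at chr1:6240382-6240631 on the minus strand. The HOMER2 window also holds the annotated start of RAMAC, at 83654962 on the plus strand. The SPTSSA and CHD5 windows lie inside the annotated spans of the genes EGLN3 and ENSG00000285629.
HOMER2: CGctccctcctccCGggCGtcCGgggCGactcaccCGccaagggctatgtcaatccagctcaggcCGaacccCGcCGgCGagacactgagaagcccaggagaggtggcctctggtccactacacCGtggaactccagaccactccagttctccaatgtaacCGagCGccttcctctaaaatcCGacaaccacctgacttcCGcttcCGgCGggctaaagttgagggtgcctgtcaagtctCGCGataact
LEP: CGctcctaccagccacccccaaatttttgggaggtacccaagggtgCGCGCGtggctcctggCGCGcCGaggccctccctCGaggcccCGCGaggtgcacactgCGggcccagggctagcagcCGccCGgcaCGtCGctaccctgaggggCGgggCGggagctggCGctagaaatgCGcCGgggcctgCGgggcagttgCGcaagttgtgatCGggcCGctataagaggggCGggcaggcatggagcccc
SPTSSA: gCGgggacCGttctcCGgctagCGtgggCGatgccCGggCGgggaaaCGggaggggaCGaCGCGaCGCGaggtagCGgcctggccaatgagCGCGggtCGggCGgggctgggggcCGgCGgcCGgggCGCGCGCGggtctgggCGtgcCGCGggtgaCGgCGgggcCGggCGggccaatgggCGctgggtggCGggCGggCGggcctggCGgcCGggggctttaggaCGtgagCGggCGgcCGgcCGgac
CHD5: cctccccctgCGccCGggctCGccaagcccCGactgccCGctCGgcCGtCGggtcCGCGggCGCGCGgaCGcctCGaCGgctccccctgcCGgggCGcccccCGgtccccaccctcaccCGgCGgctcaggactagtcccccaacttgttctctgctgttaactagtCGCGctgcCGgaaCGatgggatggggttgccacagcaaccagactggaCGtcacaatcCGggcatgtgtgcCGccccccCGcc
The 4 promoters held 19 (HOMER2), 25 (LEP), 43 (SPTSSA) and 29 (CHD5) CG dinucleotides, and their GC contents were 61.6%, 72%, 82% and 73.2% in the same order. None of these windows held the palindromic estrogen response element (GGTCA, any 3 bases, TGACC), which reads the same on both strands, or a HindIII site (AAGCTT), the cut site of the assay. Over whole bins, that estrogen response element was found in 138 of 1371 weakened bins (10.1%, 95% Wilson interval 8.58 to 11.8) and in 804 of 8965 other A bins (8.97%, 8.39 to 9.58), intervals that overlap. A match of letters is not a site bound by the receptor.

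The median score of the weakened bins was 7.02 (T0), 6.91 (T1), 6.81 (T4), 6.86 (T16) and 6.89 (T24) in the parental libraries and 4.02 in TamR. The 5 parental medians were within a narrow band and TamR lay below all of them. In the other A bins the medians were 5.57, 5.33, 5.44, 5.38 and 5.20 in the parental libraries and 6.01 in TamR. The rule required the lower TamR score, and since a bin must stay above 0 after a difference of more than 2 it also keeps out bins with low parental scores. Since the members were selected on these values, they are given as a description.

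**Figure D1:**
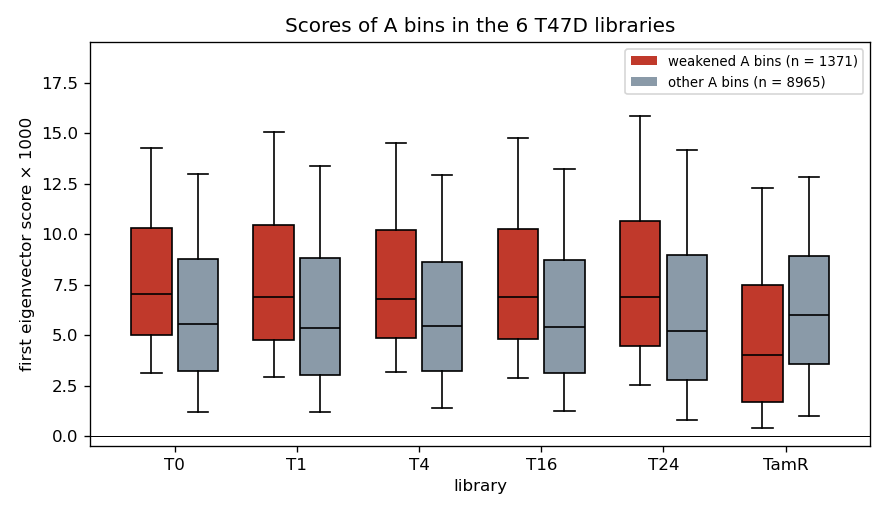
First eigenvector scores (multiplied by 1000) in each of the 6 T47D libraries for weakened A bins (red) and other A bins (grey); boxes are quartiles with the median, and whiskers run from the 5th to the 95th percentile of bins. The median of the weakened bins is between 6.81 and 7.02 in the parental libraries and 4.02 in TamR.

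The difference between TamR and the parental mean had a median of −2.60 in the weakened bins (quartiles −3.17 and −2.25) and ranged from −7.14 to −2.00. In relative terms TamR kept a median of 59.3% of the parental score (quartiles 37.6% and 74.1%), and 213 weakened bins had a TamR score under 1, close to the border with B. The median range of the 5 parental scores was 1.14 in weakened bins and 1.12 in other A bins. With a threshold of 2 below the mean and ranges of this size, a TamR score below all 5 parental scores is nearly fixed by the rule, and it was found in 1371 of 1371 weakened bins. Where it is given below for runs, bins and genes, it restates the rule and adds no support.

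Of the 10336 bins in A in all 6 libraries the weakened bins make up 13.3%, and 1105 bins (10.7%), called strengthened, were above the parental mean by more than 2. Among all 26484 scored autosomal bins the shares past the threshold were 17.5% below and 18% above. When each parental library in turn was set against the mean of the other 4 under the same rule, the share of A bins below the threshold was 0.677% for T0, 0.00967% for T1, 0.0677% for T4, 0.126% for T16 and 0.0193% for T24. TamR thus differed from the parental libraries in many more A bins than any parental library did from the others. The parental libraries are 1 cell population over a short time course and TamR is a separate line, so these shares do not stand in for replicates of TamR. Over all scored autosomal bins the correlation of scores was 0.986 to 0.997 between parental libraries and 0.897 to 0.904 between TamR and a parental library. Over the weakened bins alone TamR correlated with the parental libraries at 0.967 to 0.973, a value that the selection of bins by a narrow range of differences raises and from which nothing is read.

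**Figure D2:**
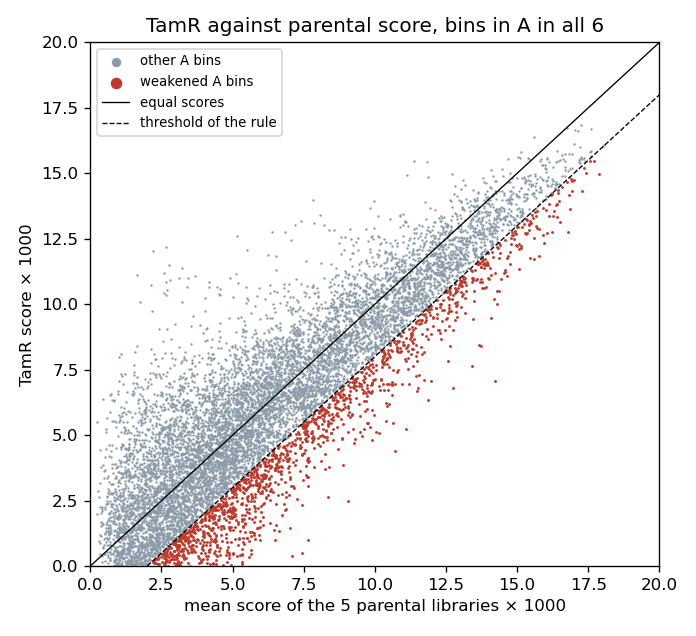
TamR score against the mean parental score, both multiplied by 1000, for the 10336 bins in A in all 6 libraries. The 1371 weakened bins (red) lie below the dashed line, a difference of −2, and the cloud is widest in TamR at low parental scores.

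The threshold cuts through a continuous distribution. Just inside it were chr15:44800001-44900000 with a parental mean of 7.47 and a TamR score of 5.47, chr2:109900001-110000000 with 3.27 and 1.27, and chr20:61700001-61800000 with 13.8 and 11.8. Just outside were chr16:1100001-1200000 with 15.3 and 13.3, chr17:72100001-72200000 with 6.57 and 4.57, and chr1:201200001-201300000 with 6.94 and 4.94. Bins on either side of the threshold were therefore alike, and 59.1% of all A bins had a TamR score below the parental mean.

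Weakened bins occurred over the whole range of A scores that the rule can reach. When the A bins were divided into 10 equal groups by parental mean score, the lowest group, with parental means up to 1.89, could hold none because a difference of 2 would have put TamR in B. The weakened share was 4.45% in the second group, 13% to 16.9% in groups 3 to 9, and 21.5% in the highest. Over all A bins of a group, members included, the median difference was 0.66 in the lowest group, −0.83 in group 9 and −1.19 in the highest. High-scoring A bins as a whole thus scored lower in TamR, and their weakened shares are to be read beside this shift. The share of strengthened bins went from 25.1% in the lowest group to 0.0967% in the highest. The high share of the top group depended on scaling: it was 8.45% after quantile normalization of the scores between libraries and 15.6% with T0 alone as reference. The lower and upper 5 groups are used below because the weakened bins differed between them.

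In the lower 5 groups 492 weakened bins had a median parental score of 4.21 and a median TamR score of 1.19, so that TamR kept 31.0% of the parental score. In the upper 5 groups 879 weakened bins had medians of 9.22 and 6.40, and TamR kept 70.6%. The median difference was similar, −2.56 and −2.63, as a rule with a fixed difference makes likely. In the other A bins the median difference was 0.23 in the lower and −0.42 in the upper 5 groups.

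Weakened bins were spread over all 22 autosomes in unequal shares. Their share of the A bins was highest on chromosomes 15 (103 of 429, 24.0%, 95% Wilson interval 20.2 to 28.3), 11 (103 of 473, 21.8%), 8 (73 of 351, 20.8%) and 16 (73 of 384, 19%). It was lowest on chromosomes 9 (21 of 441, 4.76%), 5 (27 of 496, 5.44%), 3 (35 of 610, 5.74%) and 19 (29 of 443, 6.55%). Chromosome 19 also had a high share of strengthened A bins, 30.0%. Chromosomes 1, 2, 11 and 15 together held 541 weakened bins, or 39.5% of the members against 27.2% of the A bins. The intervals cover counting only and neighbouring bins are not independent, so they are too narrow. Chromosome 15 stayed among the highest 4 in each of the 9 changes of reference or scaling that were run, while chromosome 11 left them with T0 alone as reference and after quantile normalization, and chromosome 16 left them in both of these, without T24 and with the lowest parental score as reference.

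**Figure D3:**
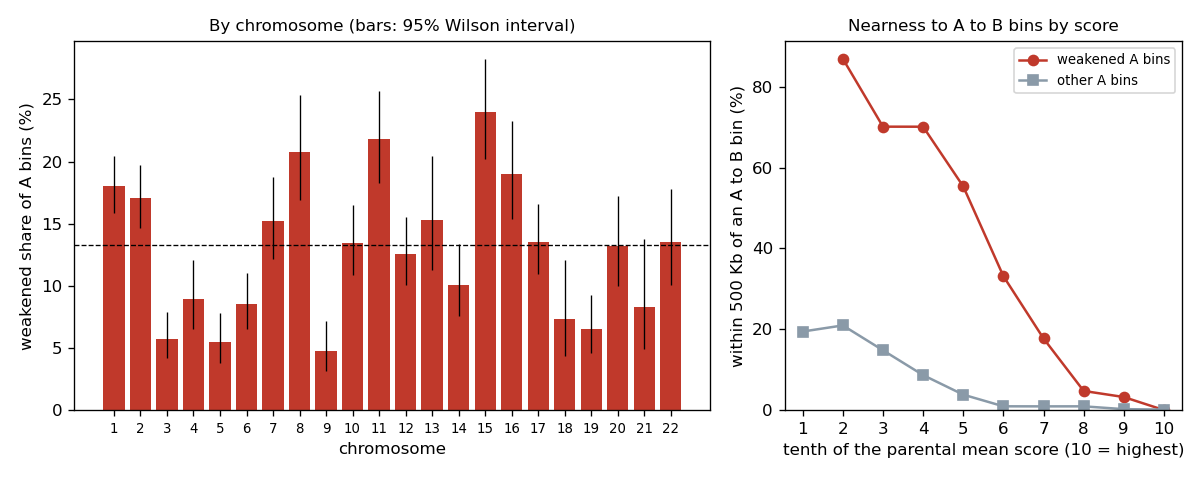
Left, weakened bins as a percent of the A bins of each autosome with 95% Wilson intervals (counting error only) and the share over all autosomes, 13.3%, as a dashed line; chromosome 15 is highest at 24.0% and chromosome 9 lowest at 4.76%. Right, percent of weakened (red) and other (grey) A bins within 500 Kb of an A to B bin in 10 equal groups of A bins by parental mean score; the lowest group holds no weakened bin.

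Weakening came in stretches as well as in single bins. The 1371 bins formed 555 runs of adjacent bins, of which 314 were single bins, and 78 runs of at least 5 bins held 636 members (46.4%, 43.8 to 49.0). Of these, 20 runs of at least 10 bins held 264 members. The bins next to the ends of runs were A bins that stayed within the threshold in 916 of 1110 cases (82.5%) and bins that had changed from A to B in 144 (13%). Only 1 of the 1110 was a bin in B in all 6 libraries and 1 a strengthened bin. The near absence of B neighbours is largely set by the rule, which keeps out the low-scoring A bins beside B. Scores vary smoothly along the chromosome, so adjacent members are to be counted as parts of 1 stretch and not as separate events.

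The longest run was chr15:83500001-85700000, with 22 bins and 18 protein-coding gene starts. Its mean score was 7.17, 6.79, 6.79, 7.17 and 7.35 at T0, T1, T4, T16 and T24 and 3.06 in TamR. TamR lay far below 5 parental means that were close to each other, and kept 43.4% of their level. The genes named by rule in it are HOMER2, RAMAC (a cofactor of mRNA cap methylation), C15orf40, BTBD1 and TM6SF1. The bin with the start of HOMER2 scored 8.28, 8.09, 8.06, 9.18 and 8.17 in the parental libraries and 5.42 in TamR. The nearest bin that changed from A to B was 600 Kb away.

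The run at chr7:127800001-129700000 had 19 bins and 25 protein-coding gene starts, LEP, RBM28, PRRT4, IMPDH1 (an enzyme of GTP synthesis) and HILPDA (a lipid droplet protein) being the first. Its mean score was 7.61, 7.06, 6.91, 6.78 and 6.79 in the parental libraries and 3.63 in TamR. TamR was again below all parental means. The bin of LEP, at the left end of the run, scored 4.16, 2.95, 3.47, 3.43 and 2.53 and only 0.29 in TamR, and the bin to its left had changed from A to B. Scores thus declined along this run toward the switched bin.

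The run at chr14:34500001-36400000 also had 19 bins, with 16 gene starts that include SPTSSA, EGLN3 (an oxygen-dependent prolyl hydroxylase), EAPP, SNX6 and CFL2 (a cofilin). EGLN3 is annotated from 34393433 to 34931980 on the minus strand, so its span reaches past the left end of the run. Its place in the run rests on this annotated start. Its means were 6.85, 6.38, 6.73, 6.49 and 6.24 in the parental libraries and 3.61 in TamR, below all of them. Switched chromatin lay on both sides, since 8 of the 10 bins to the left and 7 of the 10 to the right had changed from A to B. The run itself, with higher parental scores than its flanks in the plot of the longest runs, stayed in A.

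The run at chr1:6200001-8000000 had 18 bins and 23 gene starts, first CHD5, ENSG00000285629, RNF207, RPL22 (a ribosomal protein) and ICMT (a carboxyl methyltransferase). Its means were 8.04, 8.84, 8.38, 8.74 and 9.13 in the parental libraries and 5.17 in TamR. TamR lay below each of these, and the parental scores were higher with E2 than at T0. With T0 alone as reference 14 of the 18 bins still met the rule.

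The run at chr2:10100001-11600000 had 15 bins and 12 gene starts, first KLF11 (a Krüppel-like transcription factor), CYS1, RRM2 (a subunit of ribonucleotide reductase), HPCAL1 and ODC1 (the first enzyme of polyamine synthesis). Its means were 6.25, 6.68, 6.62, 6.63 and 6.41 in the parental libraries and 3.32 in TamR, below all of them. The bin to its right, which holds the start of GREB1, a classical E2-induced gene, changed from A to B, from 5.10, 5.01, 5.54, 5.36 and 4.56 to −0.33. GREB1 therefore lay just past the end of a 1500 Kb stretch in which the score was lower in TamR without a change of sign.

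The run at chr12:116300001-117800000 had 15 bins with means of 6.12, 5.98, 5.67, 5.63 and 5.74 in the parental libraries and 2.96 in TamR, and A to B bins touched it at both ends. Its 8 gene starts include MED13L (a subunit of the Mediator kinase module), MAP1LC3B2, SPRING1, RNFT2 and HRK (a BH3-only promoter of apoptosis). The run at chr8:21800001-23100000 had 13 bins, 30 gene starts, among them NPM2, FGF17, DMTN, FHIP2B and NUDT18, and means of 8.28, 8.47, 8.60, 8.82 and 8.63 against 4.45 in TamR. An A to B bin touched its left end. Of the 10 bins to its left 8 had changed from A to B, and of the 10 to its right 2. In both runs TamR was below all parental means.

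The run at chr22:48400001-49600000, with 12 bins, stood apart from these by gene content and position. Its means were 4.67, 4.76, 4.96, 5.37 and 5.37 in the parental libraries and 1.73 in TamR, or 34.4% of the parental level. It held 1 protein-coding gene start, that of TAFA5, a secreted chemokine-like protein, and the nearest A to B bin was 14300 Kb away. Under the change to the lowest parental score as reference the 8 runs kept shares from 11 of 15 bins (chromosome 2) to 18 of 19 bins (chromosome 7).

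**Figure D4:**
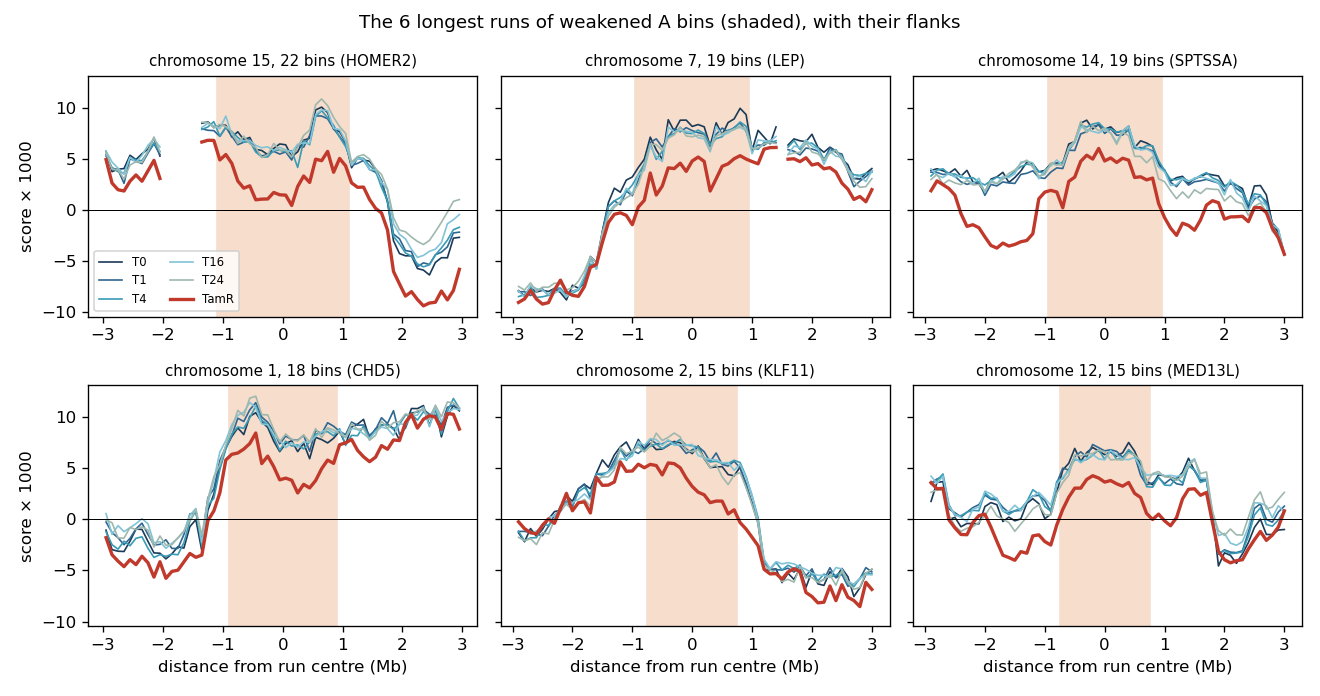
Scores multiplied by 1000 along the 6 longest runs of weakened A bins (shaded) and their flanks, against distance from the centre of the run in Mb, for the parental libraries (blue to grey) and TamR (red); gaps are bins without a score. TamR is below the parental lines throughout each shaded run and above 0, and on chromosomes 7, 14, 2 and 12 it passes below 0 next to the run.

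The bin with the most negative difference, chr12:6700001-6800000, scored 12.7, 13.9, 13.9, 14.5 and 16.1 in the parental libraries and 7.06 in TamR, a difference of −7.14. It holds the starts of CHD4, the ATPase of the NuRD chromatin remodelling complex, of the lysophosphatidic acid receptor gene LPAR5, and of ENSG00000285238, and belongs to a run of 10 bins at chr12:6300001-7300000. TamR was below all parental scores in it, and its level in TamR was still that of solid A chromatin. The next, chr20:50000001-50100000, inside the body of NFATC2, scored 7.39, 7.37, 7.50, 7.22 and 7.73 in the parental libraries and 0.52 in TamR. Here the 5 parental scores were nearly equal and TamR came close to 0.

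Of the 12 bins with the most negative differences (1 per run), 5 were on chromosome 10. Its weakened share was 77 of 572 A bins (13.5%), near the 13.3% of all A bins. The 2 bins in ABLIM1 and at AFAP1L2 lie close together and are hardly separate places. The bin chr10:104700001-104800000, in CNNM2, scored 9.40, 9.35, 9.10, 8.50 and 8.87 in the parental libraries and 2.47 in TamR. The bin chr10:75100001-75200000, with the starts of CFAP70, ANXA7 (an annexin) and MSS51, scored 10.4, 11.3, 10.5, 10.5 and 10.8 and 4.39 in TamR. The bin of BTRC, a substrate receptor of SCF ubiquitin ligases, at chr10:103100001-103200000, scored 11.2, 10.8, 10.5, 10.2 and 10.5 and 5.48 in TamR. These 3 bins were 5800 to 7400 Kb from an A to B bin. The other two, chr10:116300001-116400000 in ABLIM1 (parental 4.59 to 5.86, TamR 0.07) and chr10:116000001-116100000, overlapping VWA2 and AFAP1L2 (parental 4.71 to 5.71, TamR 0.16), touched A to B bins. They were also the 2 of the 12 bins that no longer met the rule after quantile normalization.

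The remaining 5 of the 12 were on chromosomes 8, 17, 11 and 1. The bin of NPM2, a histone chaperone of the nucleoplasmin family, and FGF17 at chr8:21800001-21900000 scored 7.76, 7.34, 7.58, 7.96 and 7.57 and 0.99 in TamR, and that of PLPP5 at chr8:38100001-38200000 scored 6.19, 6.06, 5.51, 4.95 and 5.56 and 0.47 in TamR. In both, TamR was near 0 and below all parental scores. The nearest A to B bin was 100 Kb from the NPM2 bin and 400 Kb from the PLPP5 bin. The gene-dense bin chr17:7400001-7500000, with 9 coding starts that include TNFSF12 and TNFSF13, ligands of the tumour necrosis factor family, and the read-through gene TNFSF12-TNFSF13, scored 11.4, 12.6, 13.6, 13.1 and 13.1 and 6.80 in TamR. The bin of PCSK7, RNF214 and CEP164 at chr11:117100001-117200000 scored 11.7, 12.3, 12.1, 11.2 and 12 and 6.36. The single bin chr1:149200001-149300000, which overlaps no protein-coding gene, scored 6.75, 7.16, 6.22, 5.63 and 7.45 and 1.34. These bins of chromosomes 17, 11 and 1 were 55800, 600 and 100 Kb from an A to B bin.

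Weakened bins lay closer to bins that changed from A to B than other A bins did. There were 1047 such A to B bins (A in all 5 parental libraries, B in TamR), with median scores of 1.26 to 1.96 in the parental libraries and −1.34 in TamR. The median distance to the nearest of them was 1200 Kb for weakened bins and 5800 Kb for other A bins. Within 500 Kb were 427 weakened bins (31.1%, 28.7 to 33.6) and 678 other A bins (7.56%, 7.03 to 8.13), and of the 1105 strengthened bins only 1 (0.0905%). At 100 Kb, that is in contact, were 135 weakened (9.85%) and 167 other A bins (1.86%). Both kinds of bin were chosen by the same difference between TamR and the parental libraries and scores are smooth along a chromosome, so nearness is a description of how far the lower TamR scores extended and not an independent measure.

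**Figure D5:**
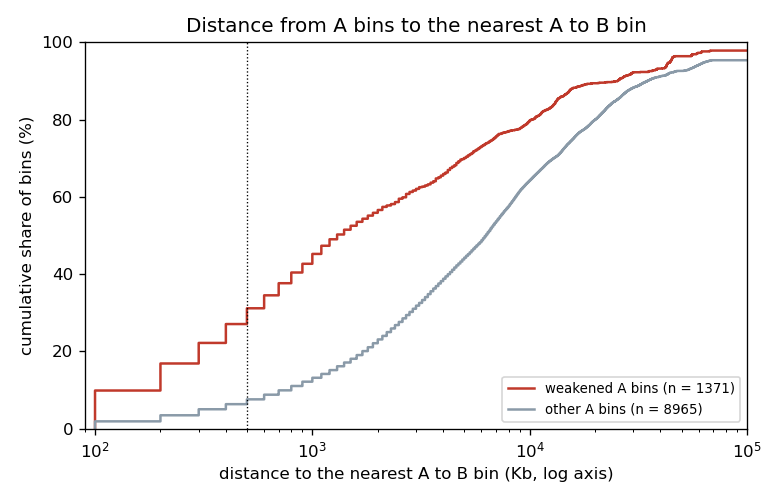
Cumulative percent of weakened (red) and other (grey) A bins by distance to the nearest A to B bin on the same chromosome, in Kb on a log axis, with 500 Kb dotted. At 500 Kb the curves are at 31.1% and 7.56%; neither reaches 100% because 29 weakened and 414 other A bins are on a chromosome without an A to B bin.

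Nearness was mostly a property of the weaker A bins. In the lower 5 groups of parental score 328 of 492 weakened bins (66.7%, 62.4 to 70.7) were within 500 Kb of an A to B bin, against 13.9% of other A bins. In the upper 5 groups 99 of 879 were (11.3%), against 0.63%. In the highest group 222 bins were weakened and none of them lay within 500 Kb of an A to B bin. The share was higher for weakened than other A bins in 8 of the 9 groups that hold weakened bins and on 21 of 21 chromosomes with A to B bins. The difference by which both kinds of bin were chosen makes this direction likely. Weakened bins of high score thus lay largely away from switched chromatin, and those of low score largely beside it. Other A bins showed the same gradient, from 13.9% to 0.63%, so it is not particular to weakened bins.

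Seen from the switched side, the 1047 A to B bins formed 360 runs, and 119 of these (33.1%) had a weakened bin on at least one side, 25 on both. Where the bin beside an A to B run was in A in all 6 libraries, it was weakened in 144 of 330 cases (43.6%), and beside A to B runs of at least 5 bins in 36 of 50 (72%). Of 657 parental A compartments, that is stretches of bins in A in all 5 parental libraries, 191 (29.1%) held a weakened bin, and 108 held both weakened and A to B bins. In 21 compartments more than 50% of the bins were weakened. Compartments with a weakened bin had a median length of 27 bins and those without one of 4 bins. The counts of compartments were not adjusted for length. Compartments with an A to B bin held 871 weakened bins (63.5%) and 36.7% of all A bins.

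Over the E2 course the weakened bins went in both directions. All 4 E2 libraries were below T0 in 451 weakened bins (32.9%) and in 31.2% of the other A bins, and all 4 above T0 in 316 (23.0%) and 23.4%. T24 was below T0 in 719 weakened bins (52.4%) and 55.6% of the other A bins. Within the weakened bins this share was 74.4% in the lower and 40.2% in the upper 5 groups of parental score, and it was 71.2% and 38.6% in the other A bins of the same groups. In the lower 5 groups all 4 E2 libraries were below T0 in 44.7% of weakened and 37.6% of other A bins, and all 4 above T0 in 14.2% and 18.6%. In the upper 5 groups these shares were 26.3% and 24.2%, and 28.0% and 28.5%.

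The weakened bins held 2183 of the 13674 protein-coding genes that start in A bins (16%, beside 13.3% of the bins). A protein-coding start was present in 893 of 1371 weakened bins (65.1%, 62.6 to 67.6), 61.7% of other A bins and 35.4% of A to B bins. The mean was 1.59 coding starts per weakened bin, 1.28 per other A bin and 0.489 per A to B bin. Bins with 5 or more starts made up 7.66% of the weakened and 4.60% of the other A bins. Among the genes of other types, lncRNA starts averaged 1.11 per weakened and 0.954 per other A bin.

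This excess of genes depended on the reference and on scaling. With T0 alone as reference 60.0% of weakened and 62.5% of other A bins had a coding start, and after quantile normalization the shares were 60.2% and 62.5%, so the direction turned in both. Within the 10 groups of parental score the mean number of coding starts was higher for weakened bins in only 2 of 9 groups, and the within-group difference, weighted by members, was 0.0859 starts per bin. In the highest group it was 3.90 starts per weakened bin against 3.05. In the lower 5 groups the mean was 0.746 starts per weakened and 0.834 per other A bin, and in the upper 5 groups 2.07 and 1.77. The small weighted difference thus joins opposite directions. In the highest group the number of weakened bins itself depended on scaling. By chromosome, the mean number of coding starts was higher for weakened bins on 16 of 22 autosomes.

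Base composition also depended on the reference and on scaling. Median GC content was 45.3% in weakened, 44% in other A and 39.7% in A to B bins, and 57.3% of weakened bins (54.6 to 59.9) were above the median of all A bins. That share was 48.1% with T0 alone as reference and 50.7% after quantile normalization. With T0 alone the median GC content turned, to 43.8% in weakened and 44.2% in other A bins. After quantile normalization it did not turn, with 44.2% and 44.1%. Weakened bins had a median of 24 HindIII sites per bin, other A bins 26 and A to B bins 30. The number of these sites sets how many fragments a bin can give in the assay. Sites and GC content both differed between the groups of bins, and their part in the result was not tested. Within the 10 groups of parental score, mean GC content was higher for weakened bins in 4 of 9. By chromosome it was higher for weakened bins on 19 of 22 autosomes. Gene bodies covered a median of 75.8% of a weakened and 68.3% of an other A bin, and 198 weakened bins (14.4%) lay within 5 Mb of a chromosome end, against 11.7% of other A bins.

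Genes known for their roles in estrogen response, resistance and chromatin were looked up in 9 lists, chosen with earlier results of these data known. Of 253 distinct genes 185 start in A bins and 30 of these in weakened bins (16.2%, beside the 16% of all protein-coding genes). For comparison, 9.39% of the protein-coding genes in A bins start in strengthened bins, and 2.71% of those in all scored autosomal bins start in A to B bins. Of the 30, 16 stayed in weakened bins under each of the 9 changes of reference or scaling. A compartment score says nothing of the transcription of a gene, and genes of 1 bin share its score. A TamR score below all parental scores, stated for some genes below, was found in every weakened bin.

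Of 25 classical estrogen targets, 19 start in A bins, 3 of them in weakened bins, none in strengthened bins, and another 4 (GREB1, PGR, HSPB8 and SIAH2) in A to B bins. PDZK1, which codes for a scaffold protein of transporters, had bin scores of 8.87, 8.79, 9.33, 8.79 and 8.57 in the parental libraries and 3.87 in TamR. EGR3, an early growth response transcription factor, had 4.94, 6.14, 6.28, 6.99 and 6.53 and 2.62 in TamR, and lies in the long chromosome 8 run. CTSD, the lysosomal protease cathepsin D, had 12.5, 14.3, 12.3, 12.5 and 14.4 and 10.7 in TamR. TamR was below all parental scores for each, with the smallest margin for CTSD, which left the weakened bins with T0 alone as reference, after quantile normalization and with the lowest parental score. The median difference over the 19 genes was −1.30, and over all protein-coding genes in A bins it was −0.63.

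Of 20 estrogen receptor coregulators 19 start in A bins and 4 of these in weakened bins, with a median difference of −0.81 over the 19. The repressor PHB2 (prohibitin 2) had bin scores of 12.1, 13.3, 13.2, 14.1 and 14.4 in the parental libraries and 7.65 in TamR, well below all of them. The RNA helicase DDX5 had 10.2, 11.3, 10.4, 10.8 and 10.2 and 7.03 in TamR. Both kept their place under each change of reference or scaling. PELP1, a scaffold of receptor signalling, had 14.2, 15, 13.7, 13.9 and 15.1 and 11.8, and lost it after quantile normalization and with the lowest parental score. NCOA3 was in a strengthened and NCOA2 in an A to B bin.

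Growth factor and PI3K signalling genes were divided: of 40 genes 27 start in A bins, 6 of these in weakened and 4 (FGFR2, NRAS and BRAF among them) in strengthened bins, and 5 others (IRS1, IRS2, PIK3R1, INPP4B and SOS1) in A to B bins. The receptor gene FGFR1 had 4.98, 4.95, 5.06, 4.96 and 5.20 in the parental libraries and 0.48 in TamR. The parental scores of FGFR1 were nearly equal, and TamR kept 9.57% of their mean. HRAS had 11.2, 12, 11.6, 10.5 and 13.4 and 8.16 in TamR, and the kinase gene MAP2K1 had 9.66, 9.69, 9.24, 9.94 and 10.1 and 6.78. Both genes had TamR below every parental score. The kinase genes AKT1 and MAPK3 and the tumour suppressor TSC2 were weakened by 2.13, 2.29 and 2.90 from parental means of 15.3, 12.1 and 17.9, and none of these 3 met the rule after quantile normalization. AKT1 also lost it without T24, with T0 alone and with the lowest parental score.

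Of 30 cell cycle and apoptosis genes 22 start in A bins, 6 of these in weakened and 3 (CCNE2, CDKN2C and PLK1) in strengthened bins, while MYC and BCL2 start in A to B bins. The mitotic cyclin gene CCNB1 had 7.39, 6.73, 6.62, 6.68 and 6.94 in the parental libraries and 2.18 in TamR, 31.7% of the parental mean. CDK4, a G1 kinase, had 9.26, 9.34, 10.5, 9.75 and 9.91 and 6.68 in TamR, and BBC3, a BH3-only promoter of apoptosis, had 14.6, 15.3, 14.2, 14.4 and 14.4 and 11.2. TamR was below all parental scores in each of these, as in every weakened bin. The survival gene MCL1 and the apoptosis effector BAK1 were weakened by 2.17 and 2.23 and lost their place with T0 alone as reference, after quantile normalization and with the lowest parental score, MCL1 also without T24.

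Among 40 genes of chromatin architecture 32 start in A bins, 6 of these in weakened bins and none in strengthened bins. CTCF, which codes for the insulator protein that anchors chromatin loops, had 12.9, 11.6, 12.7, 13.3 and 13.3 in the parental libraries and 9.0 in TamR. The DNA methyltransferase gene DNMT3A had 8.17, 7.04, 7.80, 7.43 and 7.45 and 4.90 in TamR, and EED, a subunit of Polycomb complex PRC2, had 4.51, 4.16, 4.00, 3.33 and 3.30 and 1.67. All 3 had TamR below every parental score. LMNA (lamin A/C), HDAC3 (a histone deacetylase) and KMT2A (a histone methyltransferase) were weakened by 2.52, 2.04 and 2.04, in HDAC3 and KMT2A by little more than the threshold. KMT2A kept its place in 4 of the 9 changes of reference or scaling (not without T16, without T24, with T0 alone, after quantile normalization or with the lowest parental score), HDAC3 in 6 (not without T0, without T4 or with the lowest parental score) and LMNA and EED in 8 (not with the lowest parental score).

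The luminal and keratin list had 16 of 20 genes in A bins, with TRPS1, a GATA-type repressor, and EPCAM, an epithelial adhesion molecule, in weakened bins, KRT7 in a strengthened bin, and ESR1 and GATA3 in A to B bins. EPCAM had 5.65, 5.11, 4.36, 5.13 and 4.53 in the parental libraries and 2.35 in TamR. TRPS1 had 3.81, 2.42, 2.38, 2.19 and 2.17 and 0.57, so that T0 was above the other parental scores, and it did not meet the rule without T0 or with the lowest parental score. TamR was below all parental scores in both. Of 25 genes of epithelial-mesenchymal transition 12 start in A bins, and SNAI1, a repressor of E-cadherin, was the single one in a weakened bin, with 11.3, 11.6, 10.8, 11.2 and 11.9 and 8.31 in TamR. Of 26 genes of estrogen and tamoxifen metabolism and efflux 14 start in A bins, and CYP1A1 and CYP1A2, which oxidize estrogens, share a weakened bin with 13.2, 13.8, 14.0, 14.0 and 14.7 and 11.6 in TamR. That bin no longer met the rule with T0 alone, after quantile normalization or with the lowest parental score as reference, which left this list with 0 weakened genes in each.

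The interferon and MHC class I list had no gene in a weakened bin, although 27 of its 30 genes start in A bins. Those 27 genes lie in only 23 bins, many side by side, so the count rests on few independent places. Of them 5, IFIT1, IFIT2, IFIT3, MX1 and OAS1, which code for interferon-induced antiviral proteins, start in 4 strengthened bins (9.39% of all protein-coding genes in A bins start in such bins). The bin of IFIT1 had 0.48, 1.13, 1.64, 1.35 and 0.46 in the parental libraries and 7.09 in TamR, above all of them. The median difference over the 27 genes was nonetheless −0.53, near that of all protein-coding genes in A bins. The count of weakened genes was 2 without T0, 1 without T16 and 1 with T0 alone as reference.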

How the data were processed

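TCC libraries of T47D cells at T0, T1, T4, T16, T24 and TamR (1 per condition) were taken as deposited: for each 100 Kb bin of hg19 the authors gave a score, the first eigenvector of the contacts between chromosomes computed with HiCLib after alignment, removal of poorly covered bins and iterative correction, according to the study's methods. A score of 0 was read as no score. Each library's scores have unit length (sum of squares 0.998 to 0.999) and were not scaled between libraries, and their SD, multiplied by 1000, was 6.03 to 6.05 in each. The mean of the positive scores, multiplied by 1000, was 6.16 in TamR and 6.36 to 6.39 in the parental libraries. The study's reporting summary says that its data have replicates, and the paper combined TCC replicates for MCF7 cells at T0 and T1. Whether replicate cultures were pooled for T47D is not given in the sources used here.

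Groups came from the sample labels. The members and gene lists were chosen with earlier results of these data known. A bin was a member if its score was above 0 in all 6 libraries and TamR lay more than 0.002 below the mean of the 5 parental scores. Runs are adjacent member bins, and distances are between bin centres. GC content, HindIII sites and promoters were read from GRCh37, which has the chromosome lengths of the hg19 bins on 23 of 23 chromosomes, and genes from GENCODE 44 lifted to GRCh37 (20098 protein-coding genes on autosomes and X); a gene belongs to the bin that holds its start. Named are the 8 longest runs with at most 5 coding genes each, the 12 bins with the most negative difference (1 per run, at most 3 genes each), the list genes in member bins (some items are not reported here), and 3 bins on each side of the threshold; promoters are those of the first coding genes of the 4 longest runs, chromosome 8 left out; bins and genes beside them were named after their values were seen. No test was made. Wilson intervals (95%) cover counting only. Alternatives were each parental library left out, T0 or the lowest parental score as reference, scores divided by the SD or quantile-normalized, and other thresholds, distances and gene definitions; their use on chromosomes, score groups and named genes was chosen after seeing the data. The run and distance steps were tested on simulated tracks. Python 3.11.15, numpy 2.4.6, pandas 2.3.3, scipy 1.17.1 and matplotlib 3.10.9 were used.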

Additional observations from a re-analysis of the deposited data

Results flagged for a closer look

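Chromosome X was outside the comparisons above. Of its 329 bins in A in all 6 libraries, 32 had a TamR score more than 2 (multiplied by 1000) below the parental mean. With each parental library in place of TamR the same rule gave 5 such bins for T0 and 0 for T1, T4, T16 and T24, so the count exceeds that of each parental library. The 32 bins are 9.73% of the A bins of chromosome X, below the 13.3% of the autosomal A bins. The cause was not tested.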

How the results depend on the processing

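Of 85 values recomputed under 18 settings, 52 stayed within the counting interval or within 1.5 times of the reported count, and 33 moved. No paired analysis was possible because the conditions have 1 library each. Leaving out T0, T1, T4 or T16 moved none of these values. Without T24, 43.0% of weakened bins were in runs of at least 5, 33.9% lay within 500 Kb of an A to B bin, 54.0% had GC above the A median, and the median ratio of TamR to parental score was 56.8%. With T0 alone as reference 15.9% of A bins were weakened, 42.6% of these were in long runs, 60.0% had a coding start, 48.1% had high GC, and the ratio was 55.5%. Of the 1371 weakened bins 1132 (82.6%) were among these 1646 (68.8%). After quantile normalization 38.9% were near A to B bins, 60.2% had a coding start, 50.7% had high GC, and the ratio was 53.0%. Here 1151 bins were shared, 84.0% of the members and 82.7% of the 1391. With the lowest parental score as reference 710 bins (6.87%) were weakened, 40.6% in long runs, 36.6% near A to B bins, 53.8% with high GC, ratio 56.0%. A threshold of 0.003 gave 420 bins (4.06%), 35.2% in long runs, 39.8% near, ratio 45.3%, and one of 0.001 gave 3545 bins (34.3%), 62.5% in long runs, 23.6% near, ratio 71.3%. By construction, 16.8% were within 200 Kb and 45.2% within 1 Mb, and 91.8% overlapped a coding gene body and 90.9% held a start of any gene type. The share near A to B bins was above that of the other A bins in 14 of 14 settings, by 3.16 to 5.95 times. Weakened and A to B bins were chosen by the same difference, so this direction was largely fixed in advance. Under all 9 changes of reference or scaling 666 bins stayed weakened. With 1 library per condition, no setting replaces a replicate, and depth is unknown.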
